A study of Mus musculus with 10 samples.

Results

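Gene-desert regions are stretches of open chromatin that lie far from every protein-coding gene. They were found by merging the ATAC-seq peaks of 8 libraries of haematopoietic stem and progenitor cells (HSPC) into regions wherever peaks shared at least 1 bp on chromosomes 1 to 19 and X, and by keeping each region whose midpoint was outside all protein-coding genes and more than 100 kb from the nearest gene end in the RefSeq annotation of GRCm38. Of 103446 regions, 5369 (5.19%) were gene-desert regions. A further 61682 regions (59.6%) had their midpoint inside a protein-coding gene, and 36395 (35.2%) lay between genes within 100 kb of one.

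The study asked how 2 mutations that occur together in acute myeloid leukaemia, alone and combined, change open chromatin in mouse bone marrow. All libraries came from bone marrow depleted of lineage-positive cells, on the C57BL/6 strain, with 2 replicates per genotype. The double mutant (DM) was Npm1flox-cA/+;Flt3ITD/+;Mx1-Cre+, the Npm1c group was Npm1flox-cA/+;Mx1-Cre+, the Flt3-ITD group was Flt3ITD/+, and the reference was wild-type (WT). Mx1-Cre, driven by an interferon-inducible promoter, is named for the DM and Npm1c genotypes and not for the Flt3-ITD and WT genotypes, so that an effect of the Cre driver and one of the Npm1c allele cannot be told apart. No age or sex is given, and because the animals behind the replicates are not named, the spread between replicates may be technical.

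ATAC-seq marks open chromatin by letting a transposase cut and tag DNA that nucleosomes do not cover. Open sites far from genes are often enhancers, short stretches that bind transcription factors and can act on a promoter a long way off through looping of the DNA, and several blood regulators, Runx1 and Myc among them, are known to have enhancers of this kind. Npm1c is a form of nucleophosmin that is moved to the cytoplasm, and Flt3-ITD is a form of the Flt3 receptor kinase that signals without its ligand.

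The peak lists carry no sequence, so letters can be shown only where RefSeq (GRCm38.p6) gives the start window of a non-coding gene, 250 bases before to 50 after the start. Such windows of 133 lncRNA genes touched 136 gene-desert regions. The 8 windows below lie whole inside a gene-desert region and were chosen after the calls were seen, a pair for each of 4 call patterns that the results return to. The regions at Mir99ahg (chr16:77329078-77329377, plus strand) and Gm31851 (chr2:133429809-133430108, minus strand) were called in all Npm1c and WT libraries and in no library with the Flt3-ITD allele. Gm1965 (chr6:89140744-89141043, plus strand) and 1700030C10Rik (chr12:20815730-20816029, minus strand) had the opposite pattern, called in all DM and Flt3-ITD libraries and in no other. Gm31318 (chr11:114303572-114303871, plus strand) and Gm41386 (chr15:93712706-93713005, minus strand) were called in both DM libraries only. Gm30728 (chr2:45434146-45434445, minus strand) and Gm52919 (chr6:127321112-127321411, minus strand) were called in all libraries except the DM pair. Capitals mark matches, on either strand, to letters that blood transcription factors are known to bind. The letters searched were AGATAA for Gata1 and its relatives. For the ETS factors, such as Spi1, they were GAGGAAG. For the RUNX factors, such as Runx1, they were TGTGGT. For the AP-1 factors, such as Fos and Jun, they were TGANTCA. For the C/EBP factors, such as Cebpa, they were TTGCAAT.
Mir99ahg: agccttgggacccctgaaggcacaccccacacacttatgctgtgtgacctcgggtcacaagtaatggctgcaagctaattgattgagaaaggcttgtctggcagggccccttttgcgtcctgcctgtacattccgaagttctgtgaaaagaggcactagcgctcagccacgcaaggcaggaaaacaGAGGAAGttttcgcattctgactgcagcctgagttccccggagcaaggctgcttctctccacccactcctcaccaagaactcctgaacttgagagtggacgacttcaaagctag
Gm31851: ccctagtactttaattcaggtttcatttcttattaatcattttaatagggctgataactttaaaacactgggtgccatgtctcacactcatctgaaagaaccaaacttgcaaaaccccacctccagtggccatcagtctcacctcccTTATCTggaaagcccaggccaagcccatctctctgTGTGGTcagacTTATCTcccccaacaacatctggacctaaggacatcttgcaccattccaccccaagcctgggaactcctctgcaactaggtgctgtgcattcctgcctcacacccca
Gm1965: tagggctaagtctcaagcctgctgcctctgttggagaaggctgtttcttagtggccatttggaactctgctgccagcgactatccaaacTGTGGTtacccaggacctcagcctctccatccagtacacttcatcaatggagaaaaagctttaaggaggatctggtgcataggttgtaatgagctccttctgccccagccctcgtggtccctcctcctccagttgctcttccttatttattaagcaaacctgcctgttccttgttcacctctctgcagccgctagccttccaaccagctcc
1700030C10Rik: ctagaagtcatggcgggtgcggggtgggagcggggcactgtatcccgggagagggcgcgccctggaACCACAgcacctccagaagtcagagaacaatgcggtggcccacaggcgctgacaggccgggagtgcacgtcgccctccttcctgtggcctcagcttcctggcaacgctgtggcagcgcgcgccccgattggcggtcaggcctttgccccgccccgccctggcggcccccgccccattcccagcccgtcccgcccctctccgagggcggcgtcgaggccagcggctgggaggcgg
Gm31318: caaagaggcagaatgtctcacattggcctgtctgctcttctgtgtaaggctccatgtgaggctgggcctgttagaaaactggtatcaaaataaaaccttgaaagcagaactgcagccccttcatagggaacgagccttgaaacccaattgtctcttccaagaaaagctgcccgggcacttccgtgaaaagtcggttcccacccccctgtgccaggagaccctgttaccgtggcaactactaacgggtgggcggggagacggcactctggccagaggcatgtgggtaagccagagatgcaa
Gm41386: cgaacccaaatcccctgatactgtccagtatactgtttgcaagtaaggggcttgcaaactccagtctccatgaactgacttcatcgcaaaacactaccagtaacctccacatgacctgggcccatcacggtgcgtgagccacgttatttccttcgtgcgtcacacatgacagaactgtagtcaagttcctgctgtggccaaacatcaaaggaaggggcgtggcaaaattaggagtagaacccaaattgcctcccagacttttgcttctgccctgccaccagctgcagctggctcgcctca
Gm30728: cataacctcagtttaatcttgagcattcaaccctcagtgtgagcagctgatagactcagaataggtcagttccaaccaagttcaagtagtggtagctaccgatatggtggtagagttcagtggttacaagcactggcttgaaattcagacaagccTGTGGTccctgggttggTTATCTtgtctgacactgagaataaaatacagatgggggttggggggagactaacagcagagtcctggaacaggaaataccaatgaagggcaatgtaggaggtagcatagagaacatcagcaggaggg
Gm52919: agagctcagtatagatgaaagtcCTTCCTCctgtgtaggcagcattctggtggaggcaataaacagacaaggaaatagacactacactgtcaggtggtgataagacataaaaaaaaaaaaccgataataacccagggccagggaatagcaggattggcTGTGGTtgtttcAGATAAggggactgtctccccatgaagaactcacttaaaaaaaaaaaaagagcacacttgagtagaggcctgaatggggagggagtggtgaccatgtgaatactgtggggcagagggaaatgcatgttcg

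Each match is a description of letters only. Across all 149 touched windows, AGATAA was found in 19.5% (29 windows), GAGGAAG in 21.5% (32), TGTGGT in 28.2% (42), TGANTCA in 10.1% (15) and TTGCAAT in 4.03% (6). Among all 32851 start windows of the same length the shares were 11.2%, 13.6%, 16.8%, 7.81% and 2.22% in the same order of motifs. The 149 windows were taken for touching a called region and the 32851 were not. The part of open chromatin in these differences was not tested. Of 8 windows in regions called in the DM pair alone, 5 held a match to at least 1 of the motifs, though neither of the printed ones did. Of 7 windows in regions called in all but the DM libraries, 5 held a match, among them both printed ones. Some of the touched windows are overlapping alternative starts of the same gene and are not independent. These include Gm41386 among the 8 windows and Gm41638 among the 7. Among all 149 touched windows, 92 held a match. Mir99ahg is also known as the host gene of a microRNA cluster. In this annotation 3 mature microRNAs lie beyond its end, 268.797, 269.529 and 316.136 kb past its start region and within the same desert between Usp25 and Cxadr. They are shown because the libraries split by the Flt3-ITD allele at that start region. Capitals mark the seed, bases 2 to 8, and no seed is shared among the 3.
mmu-miR-99a-5p: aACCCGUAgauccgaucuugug
mmu-let-7c-5p: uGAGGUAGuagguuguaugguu
mmu-miR-125b-5p: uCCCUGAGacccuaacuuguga

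The 8 lists held 43825 to 80916 peaks, the fewest in a Flt3-ITD library and the most in the first WT library. Reads are not part of the lists, so depth is unknown, a region is only called or not called, and a site that is not called was not detectable in that list rather than shown to be closed. All 8 markers of HSPC that were looked up (Kit, Cd34, Gata2, Ptprc, Spi1, Meis1, Runx1 and Myb) had a region within 1 kb in all 8 libraries. Of 5 markers of mature lineages reported here, the T cell gene Cd3e had regions in the second DM library alone, the B cell gene Ms4a1 and the natural killer cell gene Klrb1c had 1 region each in both DM libraries and in no other, and Ly6g of neutrophils had none in any library. The myeloid integrin gene Itgam had 6 and 10 regions in DM, 3 and 2 in Npm1c, 2 and 3 in Flt3-ITD, against 4 and 2 in WT. Both DM libraries thus had the most regions at mature-lineage markers, 8 and 14 summed over the 5 genes, against 2 to 4 in the other libraries. Of 6 genes of other tissues, 3 had a region in all 8 libraries and 3 had none.

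Gene-desert regions were narrower and called in fewer libraries than the rest. Their median width was 382 bp, against 438 bp in all other regions. The call was shared by all 8 libraries in 690 gene-desert regions (12.9%; 25.3% of all regions), and was made in 1 library alone in 1283 (23.9%; 18.5% of all regions). Gene-desert regions called in 1 library had a median width of 247 bp and those called in all 8 libraries one of 708 bp. The midpoints were a median of 176 kb and at most 1962 kb from a gene. At the threshold itself, the 503 members 100 to 110 kb from a gene and the 627 regions 90 to 100 kb away were called in all 8 libraries in 15.9% and 14.4% of cases, with median widths of 390 and 383 bp.

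The name gene desert holds for protein-coding genes and not for genes of all kinds. A lncRNA gene covered the midpoint of 1341 members, 1429 (26.6%) were inside a non-coding gene of any kind, and 558 (10.4%) lay over 100 kb from genes of all kinds. Members inside lncRNA genes were called in all 8 libraries in 16.7% of cases and those outside in 11.6%. At lncRNA start windows the share was higher, with 42 of 136 such members (30.9%) called in all 8 libraries, against 12.4% of members without a window. Members called in all 8 libraries were also wider (median 708 bp), and a wider region touches a window more readily. The part of width in this difference was not tested.

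The members were spread over 849 deserts, each the stretch between neighbouring protein-coding genes and named here by the flanking pair. A desert held a median of 3 members, 227 deserts held 1, and 55 deserts with 20 or more held 1705 members. The 10 fullest deserts held 465 members (8.66%). Per Mb of sequence over 100 kb from genes, there were 7.26 members in all, with the highest densities on chromosomes 13 (13.7) and 10 (12.8) and the lowest on chromosome X (2.65).

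Libraries with the Npm1c allele had the larger shares of gene-desert regions among the regions they called. The DM libraries called 2421 and 3008 gene-desert regions, the Npm1c libraries 2762 and 3320, the Flt3-ITD libraries 1261 and 1492, and the WT libraries 3181 and 2144. As a share of each library's called regions this was 4.64% and 5.01% in DM, 4.69% and 5.09% in Npm1c, 3.15% and 3.13% in Flt3-ITD, against 4.08% and 3.56% in WT. The 4 libraries with the Npm1c allele did not overlap the 4 without it, at 4.86 ± 0.227% against 3.48 ± 0.446% (SD, n = 4 each), whereas the 4 libraries with the Flt3-ITD allele spanned 3.13% to 5.01% and overlapped the rest. With each list cut to its 43794 widest peaks, the shares were 4.12% and 4.31% in DM, 4.03% and 4.34% in Npm1c, 3.15% and 2.80% in Flt3-ITD, against 3.04% and 2.85% in WT. The groups by Npm1c allele still did not overlap. Gene-desert regions called in 1 library alone numbered 96 and 573 in DM, 67 and 335 in Npm1c, 11 and 8 in Flt3-ITD, against 160 and 33 in WT.

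**Figure D1:**
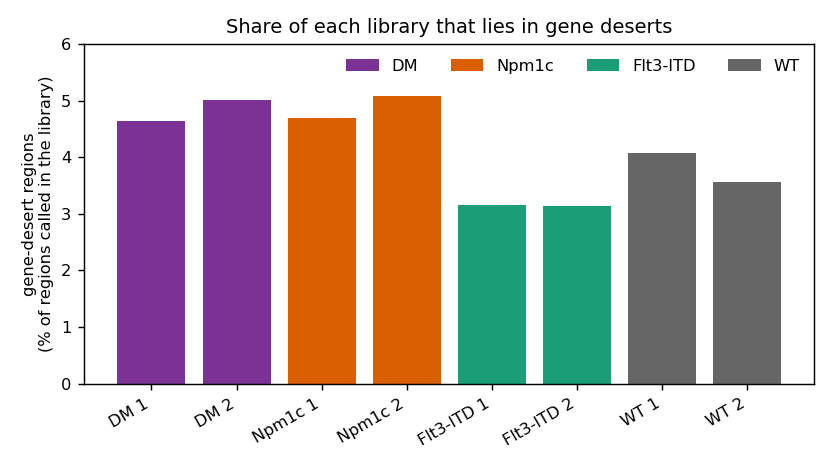
Percentage of the regions called in each library that are gene-desert regions, 1 bar per library, ordered DM, Npm1c, Flt3-ITD and WT. The 4 libraries with the Npm1c allele lie between 4.64% and 5.09%, and the other 4 between 3.13% and 4.08%.

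For each pair of genotypes, a region is called gained where both libraries of the first genotype called it and neither of the second did, and lost where the reverse held. These are names for call patterns and not results of a test, since 2 libraries against 2 cannot test a single region. Of the 5 comparisons, 3 share the WT libraries, 2 share the Npm1c libraries and 2 the Flt3-ITD libraries, and 3 share the DM libraries, so that their counts are given side by side and are not independent.

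Against WT, Npm1c HSPC gained 313 gene-desert regions (5.83%) and lost 132 (2.46%), where 2.71% of all regions were gained and 6.26% lost. Gains were thus 2.37 times as many as losses among gene-desert regions, and 0.392 times as many among all other regions. The gained regions lay in 216 deserts. The desert with most gained regions ran between Adgrl2 and Adgrl4, adhesion receptors of the G protein-coupled family (chr3:148989097-151437881), where the Npm1c libraries called 42 and 55 of 61 members, against 35 and 27 in the WT libraries, with 7 gained and 0 lost. Between Stpg2 and Pdha2, the gene of a testis form of a pyruvate dehydrogenase subunit, Npm1c called 21 and 26 of 26 members and WT 14 and 9, with 6 gained. The desert before Mef2c, a transcription factor of lymphoid and myeloid cells, also had 6 gained regions, with 20 and 25 of 27 members called in Npm1c, against 12 and 12 in WT. Most losses were beside Bcor, a corepressor partner of Bcl6, on chromosome X, where Npm1c called 3 and 4 of 22 members and WT 17 and 11, with 7 lost. Gadd45g, a stress-induced growth regulator, followed with 6 lost regions, 12 and 13 of 39 members being called in Npm1c and 29 and 19 in WT.

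The counts of this comparison moved with single libraries. The gained count was 728 without the first Npm1c library and 778 without the first WT library, and the lost count was 250 without the second Npm1c library and 587 without the second WT library. In that last setting losses outnumbered gains, 587 against 387, a ratio of 0.659, beside 0.178 in the other regions. In each of the 4 settings that left out a library, and with lists of equal length (344 gained and 62 lost), the ratio of gains to losses was larger among gene-desert regions than among the others, at 0.659 to 5.55 against 0.178 to 0.930.

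The share gained in Npm1c followed the distance from genes. It was 2.66% inside genes, 2.05% up to 10 kb away, 2.18% at 10 to 50 kb, 3.76% at 50 to 100 kb, 4.46% at 100 to 200 kb, 6.56% at 200 to 500 kb and 13.7% in the 380 regions over 500 kb away. Losses ran the other way, at 6.68%, 7.29%, 5.49%, 3.70%, 3.13%, 1.59% and 1.05% in the same classes. The 503 members 100 to 110 kb from a gene had 21 gained (4.17%) and 16 lost (3.18%), and the 627 regions 90 to 100 kb away, which are no members, had 28 gained (4.47%) and 21 lost (3.35%). An excess of gains over losses was thus also present just inside 100 kb. With lists of equal length the gained share was 4.30% inside genes and 25.3% in the 217 regions over 500 kb away, and with any of the 4 libraries left out the class over 500 kb had the highest share, at 15.5% to 27.9%. Among the regions over 500 kb from a gene, DM called 35.8% and 47.9%, Npm1c 55.8% and 71.8%, Flt3-ITD 11.1% and 13.9%, and WT 45.3% and 28.7%. Both Npm1c libraries thus stood above all other libraries there and both Flt3-ITD libraries below. The Flt3-ITD libraries were also lowest among all members, at 23.5% and 27.8%, and among all regions, at 38.7% and 46.0%. Npm1c called 51.4% and 61.8% of all members, against 59.2% and 39.9% in WT.

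**Figure D2:**
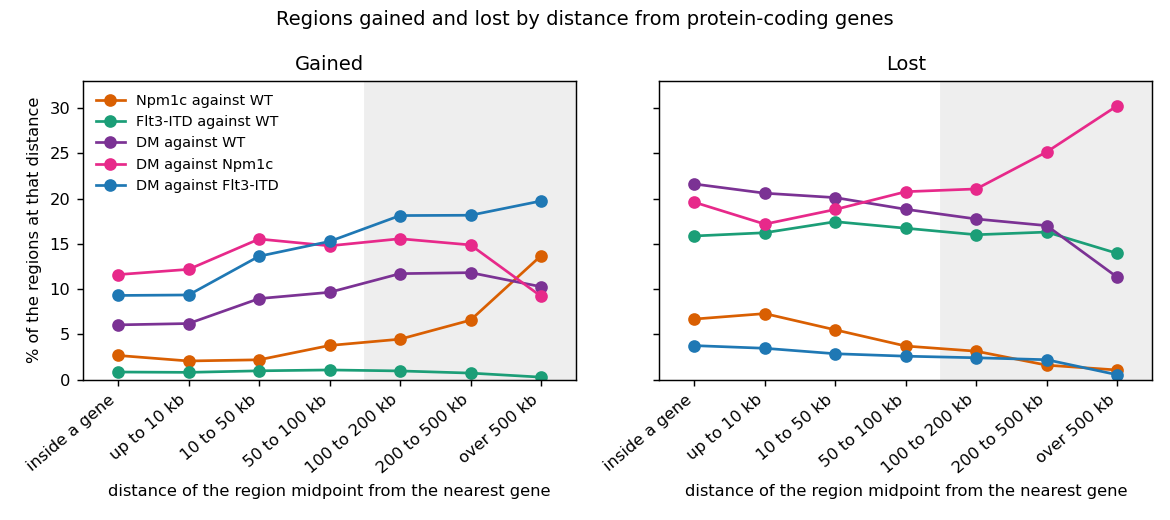
Percentage of regions gained (left) and lost (right) in 5 comparisons, by the distance of the region midpoint from the nearest protein-coding gene, with the classes over 100 kb shaded. For Npm1c against WT, the gained share is 2.66% inside genes and 13.7% over 500 kb away, and the lost share 6.68% and 1.05%.

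Flt3-ITD HSPC gained 44 gene-desert regions (0.820%) against WT and lost 857 (16.0%), close to the 0.852% gained and 16.2% lost among all regions. Losses were most frequent between Camk1g and Plxna2, a semaphorin receptor, and between Adgrl2 and Adgrl4, with 12 each. Flt3-ITD called 9 and 9 of the 36 Plxna2 members, against 22 and 20 in WT, and 8 and 12 of the 61 Adgrl2 members, against 35 and 27. Next came the desert of Cited2, a transcriptional cofactor needed by blood stem cells, where Flt3-ITD called 5 and 8 of 45 members and WT 25 and 19, with 11 lost, and that of Shox2, a homeobox gene of limb and heart, where Flt3-ITD called 3 and 3 of 20 members and WT 15 and 14, with 10 lost. The excess of losses moved with list length, and with lists of equal length 222 were gained and 237 lost (6.66% and 7.11%), beside 5.85% and 6.49% of all regions. The gained count was 72 and 70 without the first and second Flt3-ITD library and 273 without the first WT library, and the lost count was 1686 without the second WT library.

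Against WT, DM HSPC gained 625 gene-desert regions (11.6%; 6.93% of all regions) and lost 915 (17.0%; 20.9% of all regions). The ratio of gains to losses was 0.683 among gene-desert regions and 0.316 among other regions. Regions at the 5 mature-lineage markers moved with DM, with 8 and 14 in the DM libraries and 4 and 2 in the WT libraries, and their part in the DM gains, here and against Npm1c and Flt3-ITD, was not tested. The most gained regions, 15, were in the desert of Mn1, a transcriptional cofactor known as a leukaemia oncogene, where DM called 19 and 33 of 35 members and WT 9 and 3. Runx1, the core transcription factor of definitive blood stem cells, had 13 gained in its desert (chr16:92826075-93583456), where DM called 25 and 36 of 52 members and WT 27 and 14, and also 9 lost. Then came Sdk2 to Rpl38 with 11, Rps24 to Zmiz1 with 10 and Mki67 to Mgmt with 10. Between Rps24 and Zmiz1, a coactivator gene, DM called 15 and 25 of 26 members and WT 9 and 2. Losses were most frequent past Myc, with 15, and beside Enc1, with 13, where DM called 13 and 16 of 35 members and WT 25 and 17. The gained count was 1242 without the first DM library and also 1242 without the first WT library, and exceeded the lost counts of 968 and 1041 in those settings. With lists of equal length 730 were gained and 423 lost (21.9% and 12.7%), beside 13.6% and 15.4% of all regions.

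Set against Npm1c, DM HSPC gained 799 gene-desert regions (14.9%; 12.6% of all regions) and lost 1241 (23.1%; 19.3% of all regions), a ratio of 0.644 in gene deserts and 0.650 elsewhere. The Mn1 and Runx1 deserts each held 18 gained regions, with 0 and 9 lost. Cd83, a surface protein of mature dendritic cells, and Id2, an inhibitor of basic helix-loop-helix factors, flank deserts with 15 gained regions each. Between Cd83 and Jarid2, a Polycomb cofactor, DM called 24 and 32 of 43 members and Npm1c 9 and 9. Between Id2 and Rnf144a, DM called 34 and 42 of 50 members and Npm1c 19 and 19. Losses were led by the Adgrl2 desert with 20, where DM called 19 and 24 members and Npm1c 42 and 55, and by the Stpg2 desert with 19, where DM called 1 and 2 and Npm1c 21 and 26. The lost share was 30.3% over 500 kb from genes and 19.6% inside genes. Without the first DM library 1442 were gained and 1312 lost, so that gains then outnumbered losses.

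DM gained 980 gene-desert regions against Flt3-ITD (18.3%; 10.6% of all regions) and lost 118 (2.20%; 3.44% of all regions). The Id2 desert had 16 gained regions, with 34 and 42 of 50 members called in DM, against 16 and 19 in Flt3-ITD. The Mn1 and Runx1 deserts had 14 each. Between Mki67, a marker gene of cycling cells, and Mgmt, a DNA repair gene, 13 were gained, with 16 and 24 of 27 members called in DM, against 1 and 2 in Flt3-ITD. Losses in a desert were 5 at most, between Tbc1d1 and Gm38457, where DM called 9 and 15 of 34 members and Flt3-ITD 10 and 15. The gained count was 1732 without the first DM library and the lost count 265 without the first Flt3-ITD library. With lists of equal length 439 were gained and 144 lost (13.2% and 4.32%), beside 6.81% and 6.97% of all regions.

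**Figure D3:**
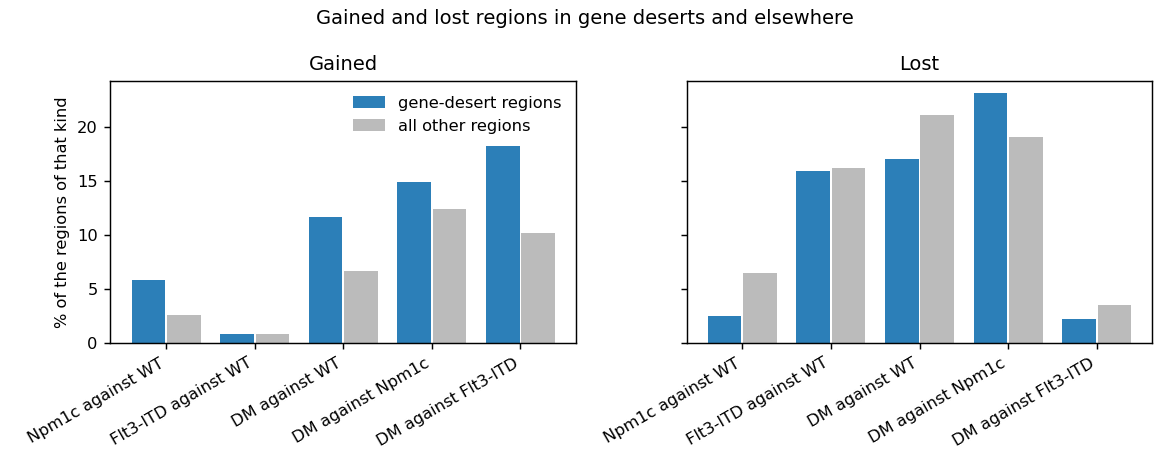
Percentage of gene-desert regions (left bar of each pair) and of all other regions (right bar) gained and lost in the 5 comparisons. For Npm1c against WT, 5.83% of gene-desert regions were gained and 2.46% lost, against 2.53% gained and 6.47% lost among the other regions.

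Patterns over all 8 libraries were counted next. In every library with the Flt3-ITD allele and in none without it, 29 gene-desert regions (0.540%; 0.566% of all regions) were called, and 520 (9.69%; 8.38% of all regions) had the reverse pattern. For the Npm1c allele these were 21 (0.391%; 0.156% of all regions) and 3 (0.0559%; 0.204% of all regions). A two-sided Fisher exact test of 4 libraries against 4 in each of the 103446 regions gave an unadjusted p under 0.05 in 549 gene-desert regions for the Flt3-ITD allele (8.94% of all regions passed) and in 24 for the Npm1c allele (0.36% of all regions). In none was the p adjusted by Benjamini-Hochberg over all regions under 0.05, the smallest adjusted exact p being 0.320 for Flt3-ITD and 1 for Npm1c. The smallest p this design allows for a region is 0.0286. Only a region called in all 4 libraries on one side and none on the other reaches a p under 0.05. The 549 and 24 regions are thus the same regions as counted above by pattern, 29 and 520, and 21 and 3. The Npm1c pattern was called in 159 gene-desert regions without the first WT library, 67 without the first Npm1c library, 36 and 32 without the first and second DM library, and its reverse in 6 without the first Flt3-ITD library. The Flt3-ITD pattern was called in 117 without the first WT library and in 45 without the first Flt3-ITD library.

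Single genotypes differed in how many gene-desert regions they called alone. Both DM libraries and no other called 486 (9.05%; 5.13% of all regions), and both Npm1c libraries and no other called 264 (4.92%; 2.38% of all regions). The numbers were 10 for Flt3-ITD (0.186%; 0.209% of all regions) and 79 for WT (1.47%; 3.02% of all regions). Conversely, 102 were absent in DM only (1.90%; 2.78% of all regions), 17 in Npm1c only (0.317%; 1.2% of all regions), 96 in Flt3-ITD only (1.79%; 1.15% of all regions) and 1 in WT only (0.0186%; 0.0164% of all regions).

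Deserts differed in which genotype called most of their members. In the Mn1 to Cryba4 desert (chr5:111457031-112246491), 35 members were called 19 and 33 times in DM, 1 and 1 times in Npm1c, 6 and 8 times in Flt3-ITD, and 9 and 3 times in WT. Both DM libraries stood above the rest, and 14 members were called in the DM pair alone. The Stpg2 to Pdha2 desert (chr3:139710300-141210003) had the opposite order of these 2 genotypes, with 1 and 2 of 26 members called in DM, 21 and 26 in Npm1c, 2 and 3 in Flt3-ITD, against 14 and 9 in WT. Between Flrt2, an axon guidance receptor, and Galc, a lysosomal enzyme, DM called 0 and 0 of 9 members, Npm1c 6 and 8, Flt3-ITD 0 and 0, and WT 3 and 1. Between Cbln2, a synaptic organiser, and Socs6, DM called 2 and 1 of 12 members, Npm1c 10 and 9, Flt3-ITD 0 and 0, and WT 5 and 3. In these last 3 deserts both Npm1c libraries stood above all others, and both WT libraries above the DM and Flt3-ITD libraries. They were named for their gains in Npm1c against WT, and the Mn1 desert for its gains in DM against WT. The highest genotype in each thus follows in part from that choice. Members called in the Npm1c pair alone were 6 in the Stpg2 desert, 4 in the Flrt2 desert and 4 in the Cbln2 desert.

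**Figure D4:**
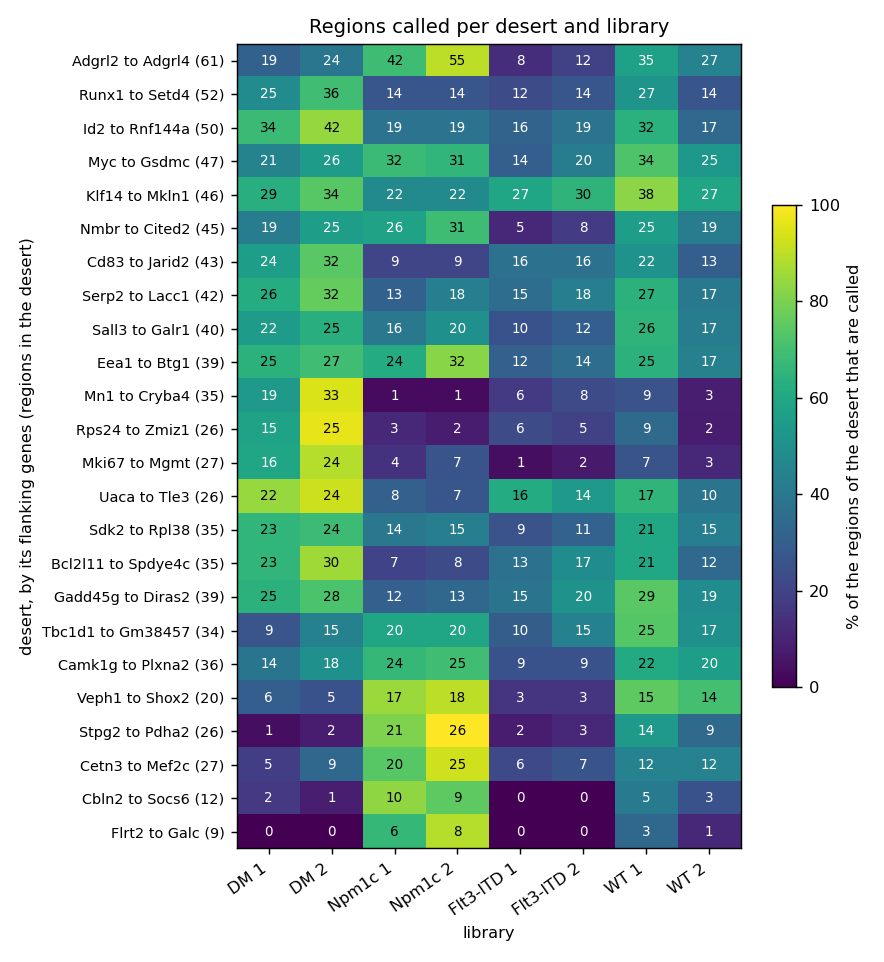
Number of gene-desert regions called in each library (figures in the cells) for 24 deserts named by their flanking genes, with the number of members in brackets and colour giving the percentage of the members called. Mn1 to Cryba4 is bright in DM only (19 and 33 of 35), and Stpg2 to Pdha2 in Npm1c (21 and 26 of 26).

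**Figure D5:**
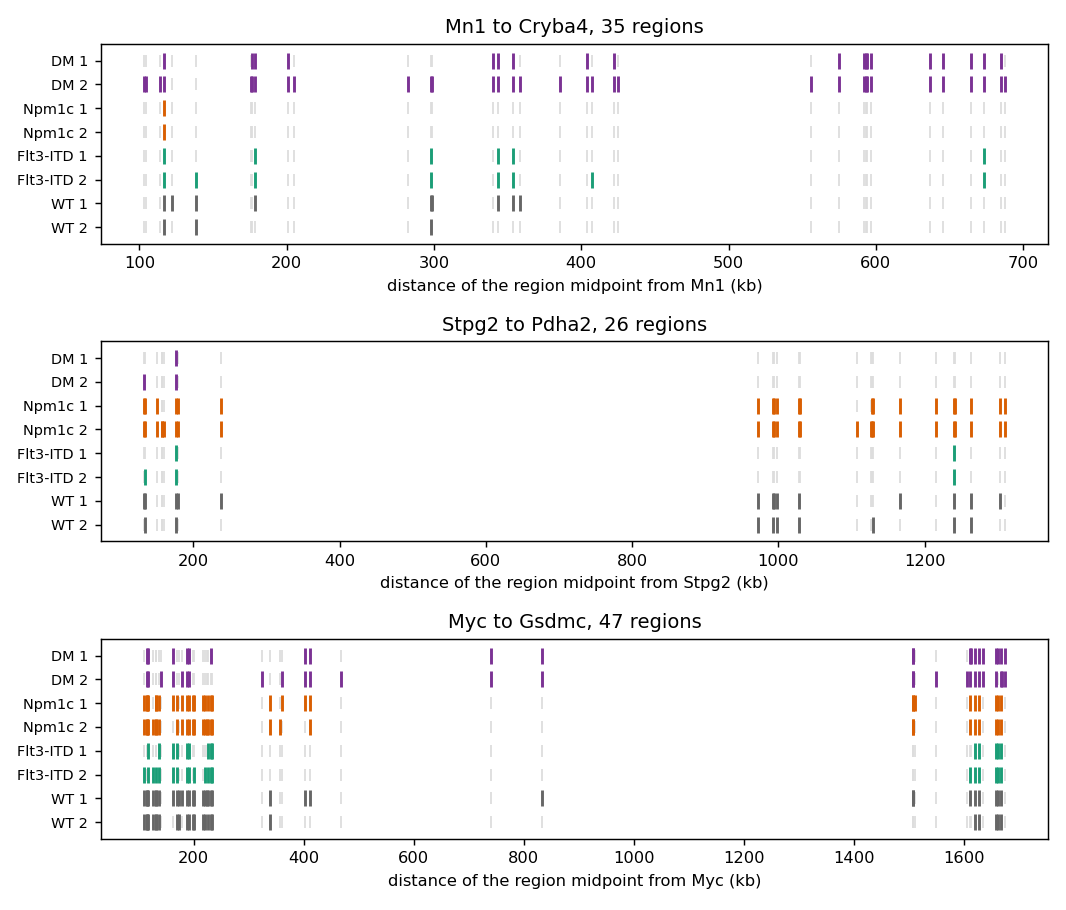
Positions of gene-desert regions in 3 deserts, as the distance in kb of the region midpoint from the gene named on the axis, with 1 row per library. A coloured tick is a region called in that library and a grey tick one that is not. Past Myc, calls in DM are sparse up to 340 kb (6 and 8 of 25) and frequent over 1 Mb away (11 and 12 of 15).

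The desert past Myc, the growth-promoting transcription factor, was divided by position at 340 kb and 1 Mb, cuts set after the calls were seen. Of 25 members up to 340 kb from Myc, DM called 6 and 8, Npm1c 20 and 21, Flt3-ITD 9 and 14, and WT 23 and 20. Both DM libraries stood below all others, and 15 of these members were lost in DM against WT. Of 7 members from 340 kb to 1 Mb away, DM called 4 and 6, Npm1c 3 and 2, Flt3-ITD 0 and 0, and WT 3 and 0. Of 15 members over 1 Mb away, DM called 11 and 12, Npm1c 9 and 8, Flt3-ITD 5 and 6, and WT 8 and 5, and none was lost in DM. Beside Irf8, a regulator of monocyte and dendritic cell fate, all 3 members, 133 to 221 kb past the gene, were called in both DM libraries and in no other.

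Deserts beside blood transcription factors held 423 members in 33 deserts, with 20 gained (4.73%) and 6 lost (1.42%) in Npm1c against WT, and 57 gained (13.5%) and 56 lost (13.2%) in DM against WT. All members together had 5.83% and 2.46%, and 11.6% and 17.0%, in these comparisons. All regions had 2.71% and 6.26%, and 6.93% and 20.9%. Klf4, a myeloid and pluripotency factor, flanked a desert where DM called 19 and 23 of 25 members, Npm1c 10 and 7, Flt3-ITD 11 and 11, and WT 11 and 7. Both DM libraries stood above all others, with 6 gained and 0 lost against WT. In the Mef2c desert the order differed, with 5 and 9 of 27 called in DM, 20 and 25 in Npm1c, 6 and 7 in Flt3-ITD, against 12 and 12 in WT. On the far side of Meis1, a HOX partner that upholds stem cell self-renewal, DM called 0 and 0 of 7 members, Npm1c 6 and 6, Flt3-ITD 0 and 0, and WT 5 and 5. That desert, between Etaa1 and Meis1, was split by the Flt3-ITD allele in every library. Beside Gata3, a T cell and stem cell factor, DM called 2 and 2 of 9 members, Npm1c 6 and 9, Flt3-ITD 1 and 1, and WT 5 and 5, with the same split. Such a split is not particular to these deserts. Libraries with the Flt3-ITD allele called 38.7% to 58.0% of all regions, and those without it 57.0% to 75.4%. Of all regions, 8.38% were called in all libraries without the allele and in none with it.

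Deserts beside receptors and signalling genes of blood held 173 members, of which 12 (6.94%) were gained and 33 (19.1%) lost in DM against WT. These shares were near those of all regions, 6.93% and 20.9%. All members together had 11.6% and 17.0%. Between Pdgfra and Kit, the stem cell factor receptor gene, DM called 3 and 1 of 10 members, Npm1c 7 and 6, Flt3-ITD 2 and 5, and WT 9 and 7, with 5 lost in DM. Beside Cxcr4, the receptor that holds stem cells in the marrow, DM called 12 and 14 of 17, Npm1c 9 and 11, Flt3-ITD 5 and 7, and WT 13 and 10. Both Flt3-ITD libraries were lowest there, as they were among all members, at 23.5% and 27.8%. Genes of proliferation and survival flanked deserts with 102 members. In DM against WT, 9 of these members (8.82%) were gained and 20 (19.6%) lost, beside 6.93% and 20.9% of all regions. Bcl6, a repressor of germinal centre cells, flanked a desert of this list with 15 members. There DM called 11 and 11, Npm1c 4 and 6, Flt3-ITD 4 and 5, and WT 11 and 5.

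Genes of neuronal adhesion, known for guiding and joining nerve cells, flanked some of the regions gained in Npm1c. Deserts of neuronal adhesion and synapse genes held 120 members in 28 deserts, of which 24 were gained and 0 lost in Npm1c against WT, beside 313 and 132 of all 5369 members. As a median, these members were 256 kb from a gene, against 176 kb for all members. DM called 26.7% and 39.2% of them, Npm1c 60.8% and 74.2%, Flt3-ITD at most 11.7%, and WT 38.3% and 27.5%. Both Npm1c libraries were above all others and both Flt3-ITD libraries below. Of all members, DM called 45.1% and 56.0%, Npm1c 51.4% and 61.8%, Flt3-ITD 23.5% and 27.8%, and WT 59.2% and 39.9%. The Flt3-ITD libraries were thus lowest among all members too. Near cadherin and protocadherin genes, which encode adhesion proteins, 49 members lay a median of 604 kb from a gene. In Npm1c against WT, 9 of them (18.4%) were gained and 0 lost. Gained and lost shares in this comparison were 2.71% and 6.26% of all regions. They were 6.56% and 1.59% of regions at 200 to 500 kb, and 13.7% and 1.05% of those over 500 kb away. The part of distance in the gains beside adhesion genes was not tested. Members of the Crbn to Lrrn1 desert, 6 in number, were called 2 and 1 times in DM, 6 and 6 in Npm1c, 0 and 2 in Flt3-ITD, against 4 and 3 in WT.

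Deserts of developmental regulators held 315 members in 54 deserts. In Npm1c against WT, 16 (5.08%) were gained and 4 (1.27%) lost, and in DM against WT 49 (15.6%) and 65 (20.6%). All members together had 5.83% and 2.46%, and 11.6% and 17.0%. All regions had 2.71% and 6.26%, and 6.93% and 20.9%. On either side of Bmp2, a bone morphogenetic protein, calls split by the Flt3-ITD allele. Fewer calls with the allele were also general, at 38.7% to 58.0% of all regions, against 57.0% to 75.4% in the libraries without it. Between Fermt1 and Bmp2, the desert that holds the Gm31851 window, DM called 0 and 0 of 10 members, Npm1c 9 and 9, Flt3-ITD 0 and 0, and WT 6 and 7. Between Bmp2 and Hao1, DM called 1 and 2 of 11, Npm1c 8 and 11, Flt3-ITD 1 and 1, and WT 7 and 6. Klhl1 to Dach1 had the same split, with 0 and 0 of 12 members called in DM, 10 and 12 in Npm1c, 0 and 0 in Flt3-ITD, against 9 and 8 in WT, as did Pax1 to Foxa2, with 1 and 1 of 6 in DM, 6 and 6 in Npm1c, 0 and 0 in Flt3-ITD, against 5 and 4 in WT. Beside Fgf9, a growth factor gene, most calls were in DM, which called 4 and 6 of 6 members, with 1 and 1 in Npm1c and none in Flt3-ITD and WT. Zfp703, a zinc finger corepressor, flanked a desert where DM called 15 and 17 of 22 members, Npm1c 5 and 7, Flt3-ITD 4 and 5, and WT 7 and 4, with both DM libraries above all others.

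The single regions that ranked widest among those gained or lost are given by the bases that the peaks of each library cover. The widest region gained in DM lay 132 kb from Zfp703 (chr8:26844608-26845586) and was covered over 825 and 979 bp in the DM libraries and called in no other. In the Mn1 desert a region 198 kb from Cryba4 (chr5:112048342-112049128) was covered over 669 and 787 bp in DM alone. Between Haao and Zfp36l2, an RNA-binding protein that limits blood cell messages, neighbouring regions had the reverse pattern. The wider one by rank (chr17:83958447-83960065) was covered over 0 and 0 bp in DM, 1589 and 1383 bp in Npm1c, 940 and 1301 bp in Flt3-ITD, against 1605 and 1511 bp in WT. The other (chr17:83955955-83957981) was covered over 0 and 0 bp in DM, 1693 and 1964 bp in Npm1c, 606 and 1085 bp in Flt3-ITD, against 2026 and 1819 bp in WT. Both lie over the lncRNA gene Gm41638.

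Other wide regions split by the Flt3-ITD allele or stood out in 1 genotype. One in the Sall3 desert (chr18:81414648-81416620), 429 kb from that zinc finger gene, was covered over 1973 and 1907 bp in Npm1c and 1104 and 1538 bp in WT, and called in neither the DM nor the Flt3-ITD libraries. Beside Trps1, a GATA-type repressor, a region 293 kb away (chr15:50361178-50362533) was covered over 844 and 841 bp in DM, 1255 and 1356 bp in Npm1c and 913 and 870 bp in WT, and not called in Flt3-ITD. The reverse split by the Flt3-ITD allele was found 148 kb from 1500009L16Rik (chr10:83910654-83911402), with 626 and 749 bp in DM, 253 and 535 bp in Flt3-ITD and none in Npm1c and WT. In Npm1c alone, a region 299 kb from Sucla2 (chr14:73894851-73896071) was covered over 1056 and 1221 bp. Loss in Npm1c alone was found 108 kb from Ccnd1, the cyclin D1 gene (chr7:145047721-145048422), with 0 and 0 bp in Npm1c, 670 and 674 bp in DM, 449 and 496 bp in Flt3-ITD, against 479 and 367 bp in WT.

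Among members called in all 8 libraries, the widest by rank (chr17:39842865-39848977, 6113 bp) lay between Esp15 and Esp38 and over the ribosomal RNA pseudogene Rn18s-rs5, with 5333 to 6113 bp covered in every library. No source used here says whether the lists were cleared of repeats. A pair of others lay between Klf14 and Mkln1 over the lncRNA gene Lncpint, and of these the one 167 kb from Klf14 (chr6:31124761-31127259) was covered over 1826 and 1977 bp in DM, 2276 and 2428 bp in Npm1c, 2135 and 2089 bp in Flt3-ITD, against 2337 and 2292 bp in WT. The farthest member from any gene, at 1962 kb, lay between Pcdh20 and Pcdh9 (chr14:90433279-90433560) and was called in the Npm1c pair alone, over 203 and 282 bp. The next, 1812 kb from a gene between Pcdh7 and G6pd2 (chr5:59996494-59997180), was called in all 8 libraries over 473 to 681 bp.

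Some members lay in dense runs, and the densest held 10 midpoints within 20 kb. The run between Slc22a12 and Rps6ka4 (chr19:6660042-6680196) had 6 and 8 of 10 called in DM, 1 and 1 in Npm1c, 6 and 7 in Flt3-ITD, against 5 and 3 in WT, so that both Npm1c libraries were lowest. The run beside Opa1 and Hes1, a Notch target gene (chr16:29833837-29849876), had 2 and 3 called in DM, 8 and 8 in Npm1c, 6 and 7 in Flt3-ITD, against 9 and 6 in WT, with both DM libraries lowest. Between Serp2 and Lacc1, an enzyme gene of macrophages (chr14:76687005-76703690), 3 of 10 were called in all 8 libraries, 8 and 9 in DM, 4 and 5 in Npm1c, 4 and 6 in Flt3-ITD, against 7 and 4 in WT, so that both DM libraries were highest.

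The Mir99ahg gene, whose start window is printed above, held 7 gene-desert regions in its body, of which DM called 0 and 0, Npm1c 7 and 6, Flt3-ITD 0 and 0, and WT 3 and 4. Its start region (chr16:77328794-77330143, 1350 bp) was 1 of 2 members of the body called in all 4 Npm1c and WT libraries and in no DM or Flt3-ITD library. Of 104 microRNA hairpins in gene deserts, 3 had a member within 2 kb. Mir205, an epithelial microRNA in the Plxna2 desert, had a region 22 bp from its hairpin that was called in both Npm1c libraries and in 1 WT library. The region 868 bp from Mir6372 was called in all 8 libraries. That 872 bp from Mir7214 was called in the second DM library and both Flt3-ITD libraries only. The Gm30728 start region lay in the desert of Zeb2, a transcription factor of myeloid and dendritic cells, where DM called 16 and 18 of 37 members, Npm1c 22 and 25, Flt3-ITD 9 and 11, and WT 21 and 13.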

How the data were processed

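Each list deposited by the authors gives the chromosome, start and end of ATAC-seq peaks, 1 list per library, with no other value than these positions and no score. Per the submitters' processing notes the reads were handled with Bowtie2 and MACS2 on mm10, and versions, settings and peak filters are not given in the sources used here. Depth is unknown, so no interval can be given, and list length stands in part for it. The 2 neutrophil samples were not analysed here. The 8 lists were merged into regions with Python 3.11.15, numpy 2.4.6 and pandas 2.3.3, a region being called in a library whose peaks share 1 bp with it. The genes were the 21631 protein-coding genes of the RefSeq table for GRCm38, the build that mm10 names. Fisher exact tests ran over all 103446 regions in scipy 1.17.1 with Benjamini-Hochberg adjustment. The tests were checked on simulated calls, and merging and distances on a small made-up example. The rule, the gene lists and the members were chosen with earlier results of these data known. Named deserts are the 10 fullest, the 5 with most gained or lost regions per comparison and direction, those of allele patterns, and those beside listed genes with at least 3 gained or lost regions. Named single regions are the widest by percentile within the lists that call them and the 5 farthest from genes. The Mir99ahg and Mir205 members, the split of the Myc desert by position and the printed windows were singled out after their values were seen. No genome sequence was used, so the motif search planned over the regions was run on RefSeq start windows only. Alternatives were lists of equal length, a distance of 200 kb, distance from the region edge, genes of all kinds, merging over 100 bp, coverage of 50% of the region and each library left out. Lphn3 and Pvt1 from the lists had no entry in the table. Some of the markers of mature blood lineages that were looked up are not reported here.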

Additional observations from a re-analysis of the deposited data

Results flagged for a closer look

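Several counts had 1 library far from the others of a group of 4, its gap to the nearest being a large share of the group's range. Chance flags about 1 in 20 groups where the 4 values come from a single normal distribution. Each group here pools different genotypes and most values are counts, so that rate need not hold. Among the libraries with the Flt3-ITD allele, the second DM library called 573 gene-desert regions alone, against 96 in the first DM library and 11 and 8 in Flt3-ITD, a gap of 0.844 of the range. Among the libraries without the Npm1c allele, the first WT library called 160 alone, with 33 in the second and 11 and 8 in Flt3-ITD, a gap of 0.836.

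The first WT library, whose list is the longest, also stood apart in the Runx1 to Setd4 desert. It called 27 of 52 members there, against 14 and 14 in Npm1c and 14 in the second WT library, a gap of 1 of the range, and the gap was 0.867 when set beside 12 and 14 in Flt3-ITD. In the Id2 to Rnf144a desert it called 32 of 50 members, against 19 and 19 in Npm1c and 17 in the second WT library, a gap of 0.867.

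In a pair of deserts an allele went with opposite changes on the 2 backgrounds, in all libraries. Between Cd83 and Jarid2, Npm1c minus WT was -8.5 regions (9 and 9 in Npm1c, 22 and 13 in WT), and DM minus Flt3-ITD was 12 (24 and 32 in DM, 16 and 16 in Flt3-ITD). Between Sall3 and Galr1, Flt3-ITD minus WT was -10.5 regions (10 and 12 in Flt3-ITD, 26 and 17 in WT), and DM minus Npm1c was 5.5 (22 and 25 in DM, 16 and 20 in Npm1c). Neither difference between backgrounds was tested.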

How the results depend on the processing

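All 16 counts stayed within 1.5 times the reported value when the distance was taken from the region edge and when peaks up to 100 bp apart were merged. With lists of equal length there were 3332 gene-desert regions, 388 of them in all 8 libraries, and the counts that moved by more were 62 lost for Npm1c against WT, 222 gained and 237 lost for Flt3-ITD against WT, 423 lost for DM against WT, 769 lost for DM against Npm1c, 439 gained for DM against Flt3-ITD, 139 and 179 with and without Flt3-ITD, and 33 and 0 with and without Npm1c. The mean share of a library's regions was then 4.22% in DM, 4.18% in Npm1c, 2.97% in Flt3-ITD and 2.95% in WT. Beyond 200 kb there were 2208 regions (223 in all 8 libraries), with 172 gained and 33 lost for Npm1c against WT, 14 and 351 for Flt3-ITD against WT, 255 and 354 for DM against WT, 307 and 575 for DM against Npm1c, 407 and 42 for DM against Flt3-ITD, 10 and 226 with and without the Flt3-ITD allele, 13 and 0 with and without the Npm1c allele, and mean shares of 1.86% in DM, 2.06% in Npm1c, 1.07% in Flt3-ITD and 1.44% in WT. With genes of all kinds there were 558 regions (53 in all 8), with 66 and 8, 0 and 88, 61 and 78, 59 and 153, and 109 and 3 gained and lost in the same order of comparisons, and 0 and 56, and 4 and 0, for the alleles. Requiring 50% of the region to be covered gave 307 regions in all 8 libraries, 51 lost for DM against Flt3-ITD and 5 without the Npm1c allele.

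With each library left out in turn, regions called in all others were 690 to 789, and gained and lost counts were 387 to 778 and 166 to 587 for Npm1c against WT, 45 to 273 and 900 to 1686 for Flt3-ITD against WT, 627 to 1242 and 968 to 1326 for DM against WT, 858 to 1442 and 1312 to 1731 for DM against Npm1c, and 1054 to 1732 and 132 to 265 for DM against Flt3-ITD. The allele patterns were 29 to 117 and 523 to 672 for Flt3-ITD and 21 to 159 and 3 to 6 for Npm1c. The cause of these shifts was not tested beyond the fewer libraries or regions that each setting leaves.

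With the replicate number as a block, the exact test gave 0 gene-desert regions at an unadjusted p under 0.05 for either allele, since its smallest possible p is 0.0556, and with lists of equal length 318 passed for the Flt3-ITD allele. Replicate numbers did not pair the libraries, the correlations of same-numbered deviations lying between -0.0399 and 0.0387. Depth, not given by the lists, limits every absence reported here.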

Other observations

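Regions called in 1 library alone were mostly narrow. The 573 of the second DM library had a median width of 257 bp and the 335 of the second Npm1c library one of 246 bp, against 382 bp for all gene-desert regions. They lay a median of 180 and 194 kb from a gene, against 176 kb. Among called members, the median covered length was 355 and 356 bp in DM, 367 and 375 bp in Npm1c, 326 and 340 bp in Flt3-ITD, and 364 and 358 bp in WT, so that both Flt3-ITD libraries were lowest.

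The desert between Pcdh9 and Spertl held 1 member and that between Med30 and Ext1 also 1, and both were called in all 4 libraries with the Npm1c allele and in no other. Ext1 makes heparan sulfate chains. Between Tpbg and Ube2cbp, DM called 2 and 2 of 2 members, Npm1c 1 and 1, and Flt3-ITD and WT none.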
